A study of Drosophila melanogaster with 2 samples.

Results

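The elav family of Drosophila melanogaster comprises elav, fne and Rbp9, 3 of the 13945 protein-coding genes on the main chromosome arms. These genes were chosen by name and with their peaks in these data known, so their peaks are described here and not tested. The data are ChIP-seq, in which DNA bound to a protein is recovered with an antibody and sequenced, on whole embryos of 0 to 24 h. The transgenic strain, klu-GFP in the labels, expressed eGFP fused to Klumpfuss (Klu), which belongs to the EGR and WT1 group of zinc finger proteins that bind DNA, and the antibody was directed against GFP. There were 2 biological replicates of this single group, and no untagged, wild-type or control library was analysed here. The labels describe an insertion targeting klu but give neither the promoter that drives the fusion nor whether the unfused protein was also present. No cell type was separated, so a weak signal in many cells and a strong signal in few cells cannot be told apart.

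Proteins of this family carry RNA recognition motifs and bind U-rich and AU-rich stretches in transcripts, where they affect splicing, the choice of the polyadenylation site and RNA stability. ELAV is a nuclear protein of neurons and the usual marker of that cell type in flies. FNE, named for being found in neurons, can take over part of the work of ELAV when ELAV is missing. RBP9 is known from neurons and from the female germ line, where it is needed for differentiation. Klu is known from neuroblasts, the neural stem cells whose daughters later become neurons that express elav.

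Each deposited peak has a signal, a height for which the sources used here name no scale, and a score of up to 1000. The lists are labelled IDR (irreproducible discovery rate), a method that grades how reproducibly peaks rank between inputs. Lists that hold no score under 830 are called thresholded, and the longer lists with lower scores are called ranked. The score alone does not define the thresholded lists, since the ranked pooled list had 3309 peaks of 830 or more over all sequences and the thresholded one 3126. The pooled and the stricter conservative list both derive from the alignments of both replicates. The pooled list held 3087 peaks on the main arms, the conservative list 2386, and the lists of replicates 1 and 2 held 1511 and 2561. Sequencing depth is unknown, since the lists carry no read numbers. A gene with a summit at most 1 kb from an annotated start is described as having a start peak. At klu itself the strongest start peak in the pooled list had a signal of 108. All positions are in dm6 and counted from 1.

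The elav locus lies at X:509235-523226 on the minus strand (FBgn0260400, 14.0 kb, 2 distinct starts). Its strongest peak covered X:523350-523627, and its other peak had its summit at X:522626. The fne locus lies at X:12917477-12950417 on the plus strand (FBgn0086675, 32.9 kb, 4 distinct starts), with pooled summits at X:12926027 and X:12937989. Rbp9 lies at 2L:2954762-2968434 on the plus strand (FBgn0010263, 13.7 kb, 3 distinct starts) and had no thresholded peak.

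The whole of the elav start peak is printed because it carries the highest signal of the family. For the other peaks the 50 bases on either side of the pooled summit are given, and for Rbp9 the same stretch under its pooled candidate of highest score, so that the base composition of the listed and unlisted places can be compared. All are read 5′ to 3′ on the plus strand of the RefSeq copy of the dm6 genome, and capitals mark matches to any of the 7 motifs described with the sequence results further on.
elav start peak, X:523350-523627: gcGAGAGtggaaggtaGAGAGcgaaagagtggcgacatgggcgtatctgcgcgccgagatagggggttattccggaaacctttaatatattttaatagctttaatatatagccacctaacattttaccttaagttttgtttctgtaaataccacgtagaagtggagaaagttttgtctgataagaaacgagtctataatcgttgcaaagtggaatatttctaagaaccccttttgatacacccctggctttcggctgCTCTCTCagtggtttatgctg
elav intron peak, X:522576-522676: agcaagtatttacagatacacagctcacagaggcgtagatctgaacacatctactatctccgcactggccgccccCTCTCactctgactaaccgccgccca
fne inner start peak, X:12937939-12938039: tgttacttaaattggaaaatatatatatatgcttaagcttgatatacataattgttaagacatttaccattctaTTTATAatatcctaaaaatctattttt
fne intron peak, X:12925977-12926077: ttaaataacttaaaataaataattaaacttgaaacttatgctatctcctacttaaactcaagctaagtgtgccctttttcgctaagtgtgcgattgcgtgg
Rbp9 unlisted candidate, 2L:2957313-2957413: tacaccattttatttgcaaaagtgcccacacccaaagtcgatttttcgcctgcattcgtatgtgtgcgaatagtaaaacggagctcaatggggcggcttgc

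The 3 genes differed in what the lists held. In the pooled list 2 of the 3 members, elav and fne, had a start peak, against 16.1% of all protein-coding genes. In the conservative list only elav did, against 13.1% of all protein-coding genes. The list of replicate 1 held a start peak for elav and for neither other member, against a share of 8.96% over all genes, and the same was so in the list of replicate 2, against 14.9%. Members have several starts, and among protein-coding genes with 2 to 4 distinct starts the pooled share was 25.6%. Counting summits anywhere in the gene body as well, elav and fne held 2 pooled peaks each and Rbp9 held none. By that rule 19.0% of all protein-coding genes and 36.4% of those of 10 to 40 kb held at least 1 pooled summit. With 3 genes chosen for these values, the counts say nothing about the family as a class.

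**Figure D1:**
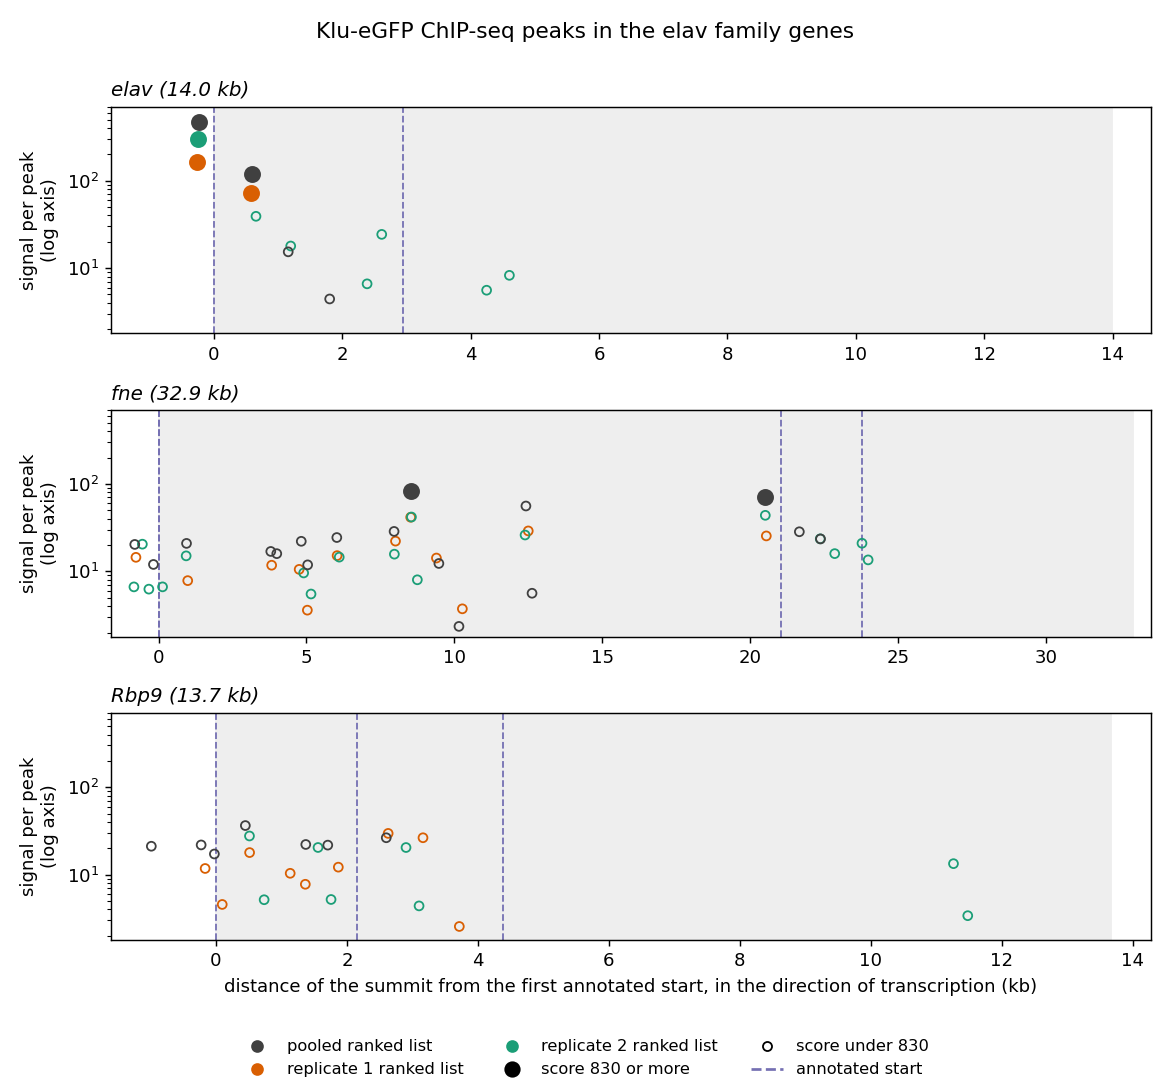
Signal per peak (log axis) against the distance of the summit from the first annotated start of elav, fne and Rbp9, in kb along the direction of transcription, for the ranked pooled list and the ranked lists of both replicates. Large filled points have a score of 830 or more and small open points a lower one; grey marks the gene body and dashed lines the starts. The filled points at elav sit at its first start, those at fne 8550 and 20512 bp into the gene, and Rbp9 has open points only.

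At elav the dominant peak lay upstream of the start used by 3 of its 4 annotated transcripts. The peak was 278 bp wide, and its summit at X:523460 was 234 bp upstream of the start at X:523226. The pooled list gave it a signal of 463, and the ranked lists gave 166 in replicate 1 and 298 in replicate 2. Its score was 1000 in the pooled, the conservative and both replicate rankings, and its summit moved by 36 bp in replicate 1 and 13 bp in replicate 2. By signal it stood at place 107 of 3087 in the pooled list, 152 of 1511 in the list of replicate 1 and 101 of 2561 in that of replicate 2. Among the 2243 genes with a start peak in the pooled list, 94.2% had a lower strongest signal than elav, and the median was 134. Klu-eGFP signal at the elav start was therefore high in both libraries.

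The other elav peak lay inside the gene, in an intron. Its summit at X:522626 was 600 bp downstream of the same start, and its pooled signal was 118, place 1343 of 3087. The signal was 71.8 in replicate 1 and 39.1 in replicate 2. The score was 1000 in the pooled, conservative and replicate 1 rankings but 44 in that of replicate 2, so the list of replicate 2 did not hold it. Like 6.61% of all pooled peaks, the intron peak was in the list of replicate 1 only. By signal the replicates thus differed in opposite directions at these neighbouring peaks. On the log2 scale, replicate 2 minus replicate 1 was 0.85 at the start peak and -0.88 at the intron peak, while the median over the 2989 pooled peaks with a match in both ranked lists was 0.48, with 5% of them below -0.75 and 5% above 1.78. The difference at the intron peak was lower than that of all but 3.68% of the pooled peaks.

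The second elav start, at X:520285, serves the remaining transcript. No thresholded peak lay within 1 kb of it in any list, and the nearest pooled summit was 2341 bp away. In the ranked list of replicate 2 it had a candidate 326 bp upstream with a signal of 24.3 and a score of 96. The ranked list of replicate 1 held no candidate within 1 kb of this start. The thresholded lists thus held elav peaks at its first start and none at the second.

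The elav start is shared. The non-coding gene lncRNA:enrr begins at the same base, X:523226, on the same strand, so the peak is as near to its start as to that of elav. The arginase gene arg runs the other way through the whole neighbourhood, X:509435-528028, and both elav peaks lie in its intron. The only arg start was 14.0 kb from the summit of the elav start peak and 9622 bp from the nearest pooled summit. Which of these genes a peak belongs to was not tested.

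The fne gene had pooled peaks of lower signal at places away from its first starts. The peak nearest to a start had its summit at X:12937989, 528 bp upstream of an inner start at X:12938517 that serves 5 of 11 annotated transcripts. The pooled signal was 71.6, with 25.4 in replicate 1 and 43.8 in replicate 2. It lay just above the threshold in the pooled ranking, with a score of 892, and under it elsewhere, with 530 in the conservative ranking, 88 in replicate 1 and 800 in replicate 2. By pooled signal 6.69% of the genes with a start peak ranked lower. This peak alone placed fne among the genes with a peak near a start.

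The other fne peak lay deep in an intron. Its summit at X:12926027 was 8550 bp downstream of the first start, 8543 bp from the nearest one and 12490 bp before the inner start, so it is the nearest family peak outside the limit of 1 kb. The pooled signal was 82.5, with 41.6 in replicate 1 and 41.9 in replicate 2. Replicate 2 minus replicate 1 was 0.01 on the log2 scale at this peak and 0.78 at the inner start peak, against the median of 0.48 over the pooled peaks. The score was 1000 in the pooled ranking and 959 in the conservative ranking, but 701 in replicate 1 and 586 in replicate 2. Both fne peaks were thus absent from the thresholded list of either replicate, like 21.2% of all pooled peaks. The nearest thresholded summit to the inner start was 161606 bp away in the list of replicate 1 and 151540 bp away in that of replicate 2.

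Around the first fne starts, at X:12917477 and X:12917484, the pooled ranking held 3 candidates within 1 kb, the highest with a signal of 20.9 and a score of 116. At the innermost start, X:12941272, the ranked list of replicate 2 held a candidate 9 bp away with a signal of 21.0 and a score of 63, and that of replicate 1 held none within 1 kb. Another intronic candidate at X:12929900 had a pooled signal of 56.0, with a score of 212 in the pooled ranking and 534 in the conservative ranking. In the pooled ranking the signals at these places were below those of both thresholded fne peaks. In replicate 1 the candidate matching X:12929900 had a signal of 29.0, above the 25.4 of the inner start peak.

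At Rbp9 no list held a peak that reached the threshold. The pooled ranking held 7 candidates in the gene or within 1 kb of a start, with signals of 17.2 to 36.4 and scores of 24 to 262. The candidate of highest signal had its summit at 2L:2955211, 449 bp downstream of the first start, with a signal of 36.4 in the pooled ranking, 17.9 in replicate 1 and 27.7 in replicate 2. The candidate of highest score had its summit at 2L:2957363, 452 bp downstream of the second start, with a signal of 26.4 in the pooled ranking and 29.6 in replicate 1. In replicate 2 the overlapping candidate had a signal of 20.4 and its summit 302 bp away. The conservative ranking also held a candidate at 2L:2957861, 950 bp downstream of the second start, with a signal of 33.1 and a score of 41. Whether the replicate 2 match belongs to that candidate was not tested. Scores of the Rbp9 candidates were at most 321 in any ranking. At the third start the ranked list of replicate 1 held a candidate with a signal of 2.56, and that of replicate 2 held none within 1 kb. These lists cannot show that Klu-eGFP was absent from Rbp9, only that no place there reached the threshold.

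Ordered by signal within replicate 1, the elav start peak at 166 was followed by the elav intron peak at 71.8, the fne intron peak at 41.6, the second-start candidate of Rbp9 at 29.6, the fne inner start peak at 25.4 and the first-start candidate of Rbp9 at 17.9. Within replicate 2 the order was the elav start peak at 298, the fne inner start peak at 43.8, the fne intron peak at 41.9, the elav intron peak at 39.1 and the first-start and second-start candidates of Rbp9 at 27.7 and 20.4. The elav start peak stood above every other place in both. The elav intron peak and both fne peaks stood in opposite orders in the 2 replicates, so they were not separated beyond the spread between replicates. The first-start candidate of Rbp9 was below all 4 peaks in both replicates, while the second-start candidate was above the fne inner start peak in replicate 1 and below it in replicate 2. The replicate 2 match of the second-start candidate had its summit 302 bp away, so it may not be the same place.

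**Figure D2:**
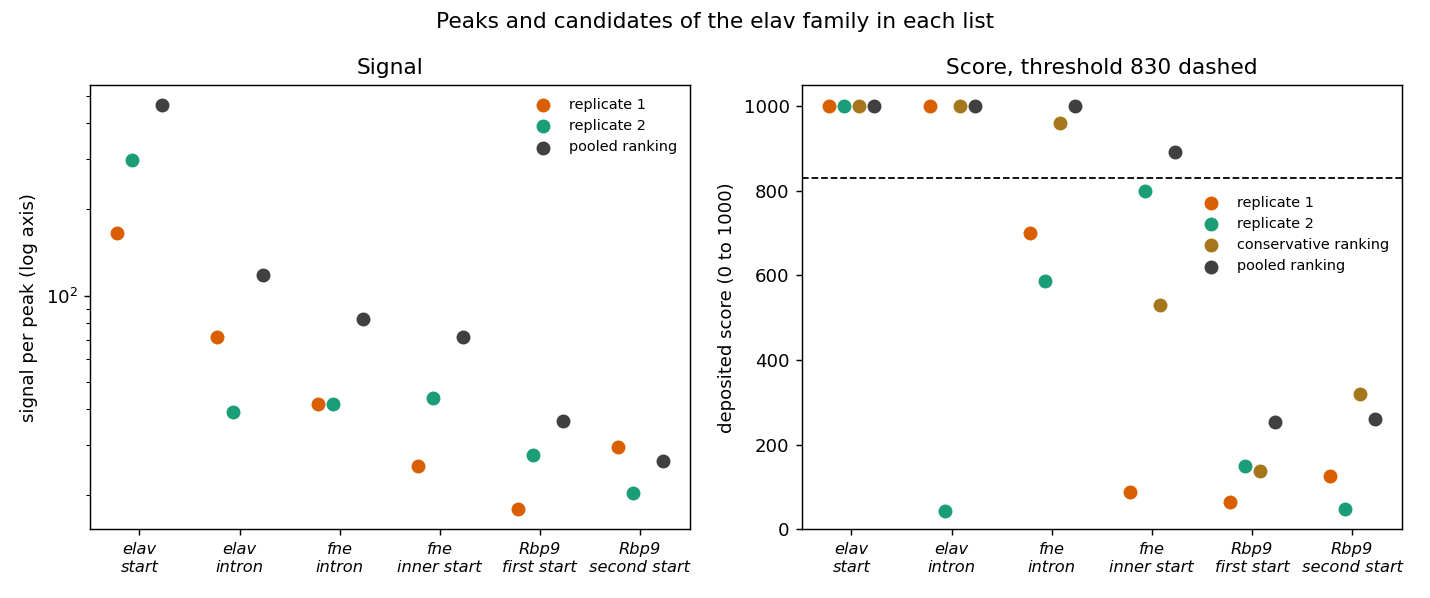
Signal (left, log axis) and deposited score (right, dashed line at the threshold of 830) of the 4 pooled member peaks and the 2 Rbp9 candidates, matched to each ranked list by the nearest overlapping summit. The elav start peak has a signal of 166 and 298 in the replicates and a score of 1000 throughout, while the fne inner start peak passes the line only in the pooled ranking, at 892.

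For the strongest start peak of elav and of fne, the genes with the most similar pair of replicate signals were picked. Over the 2172 genes whose strongest peak near a start had a match in both ranked lists, likeness was the straight-line distance between the log2 signals of both replicates. Nearest to elav were CG2698 and Kmn2, which share a peak with signals of 166 in replicate 1 and 299 in replicate 2, and Eno, the gene of the glycolytic enzyme enolase, with 162 and 298. Nearest to fne were CG3337 and Nelf-A, which share a peak with signals of 24.7 and 45.8, and Coop, with 26.9 and 43.9. These are descriptions over 2 libraries and imply no shared control.

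**Figure D3:**
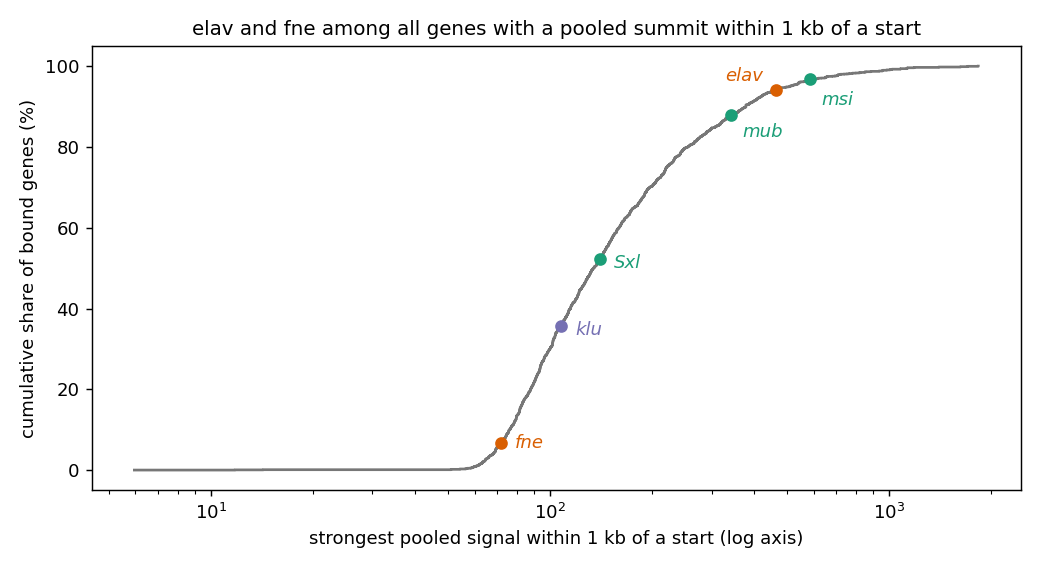
Cumulative share of the 2243 genes with a start peak in the pooled list (%), by the signal of the strongest one (log axis), with elav, fne, klu and the RNA-binding protein genes msi, mub and Sxl marked. elav lies above 94.2% of these genes and fne above 6.69%.

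The surroundings of the members differed as well. On the lower side of elav, the carboxypeptidase gene svr ends 162 bp away and had a start peak with a signal of 104. CG17778, the next gene, had a start peak with a signal of 470, close to that of the elav start peak in the pooled list, and with 229 in replicate 1 and 249 in replicate 2. On the other side, CG4293 and Appl, the fly homologue of the amyloid precursor protein gene and itself a neuronal gene, had no start peak, the nearest pooled summits being 6389 bp from a start of CG4293 and 7041 bp from one of Appl.

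None of the 4 nearest protein-coding genes beside fne had a start peak. The nearest pooled summit was 15968 bp from a start of CG4645, 16405 bp from Brms1, 19473 bp from hec and 21231 bp from CG32642. The gene hec, which encodes a G protein-coupled receptor, ends only 18 bp from the end of fne. Neither flank of fne thus had a start peak at its nearest genes.

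Rbp9 lay between genes that did have peaks. Its nearest pooled summit was 13.7 kb from the third of its starts, and 54.7% of all protein-coding genes had a summit nearer to a start. Downstream, a summit 4365 bp beyond the end of Rbp9, at 2L:2972799, lay 92 bp from a start of the gamma-tubulin gene gammaTub23C and 291 bp from one of Rrp1, which encodes a DNA repair enzyme. The pooled signal there was 231, with 67.4 in replicate 1 and 166 in replicate 2. Upstream, the transcription elongation factor gene lilli ends 355 bp before Rbp9, and its own start peak, which lies within 1 kb of a start of NTPase too, had a signal of 175 and lay 69451 bp from Rbp9. The upstream peak nearest to Rbp9 had a signal of 76.8 and was 57.6 kb away, inside lilli. The thymidylate synthase gene Ts overlaps the end of Rbp9 on the other strand and had no start peak, the nearest pooled summit being 3161 bp from a start. The peaks on either side of Rbp9 were thus at or in its neighbours.

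The sequence under the member peaks varied in base composition. Within 50 bp of the summit, GC content was 30.7% at the elav start peak, 18.8% at the fne inner start peak and 32.7% at the fne intron peak, against a median of 33.7% over the pooled peaks. The elav intron peak had 53.5%, higher than 90.2% of the pooled peaks, and both Rbp9 candidates had 46.5%. The fne inner start peak was poorer in G and C than all but 1.94% of the pooled peaks, which is visible in the printed stretch. The longest run of A and T was 17 bp at the elav start peak and 18 bp at the fne intron peak, against a median of 10 bp, and 6 bp at the elav intron peak. In windows of 100 bp on either side, the elav start peak (38.8%) and the fne intron peak (36.3%) were above the median of 35.8%.

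The 7 motifs, searched on both strands with overlapping matches counted, were looked up in the same windows. The EGR-type motif of the family of Klu, GTGGGCG or GTGGGTG, was in none of the 4 member peaks within 50 bp of the summit, where 4.50% of the pooled peaks held it, nor in the Rbp9 candidates. In the whole of each peak, where 14.6% of the pooled peaks held it, there was 1 match, in the elav intron peak and 162 bp from its summit. It is printed here, with the match in capitals, since it is the only one in the family's peaks.
EGR-type match, X:522770-522806: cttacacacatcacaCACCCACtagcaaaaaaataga

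The GAGA motif GAGAG was counted near summits and over whole peaks. Whole peaks of the family are longer than the summit windows, so higher counts over them do not place the motif away from summits. It had 1 match within 50 bp of the summit of the elav intron peak and none at the other member peaks, against 10.7% of the pooled peaks. Over whole peaks there were 4 matches in the elav start peak, 5 in the elav intron peak, 5 in the fne intron peak and 2 in the fne inner start peak, where 41.1% of the pooled peaks had at least 1, and none in either Rbp9 candidate. In the printed elav start peak they lie at its edges, away from the AT-rich middle that holds the summit. TATAAA was found once within 50 bp of the fne inner start summit, which 20.1% of the pooled peaks also showed. The other motifs had no match within 50 bp of the summit of any member peak. Of the pooled peaks, 1.33% held the DREF motif TATCGATA there, 14.3% held CGATA, which lies inside it, 0.421% held the Zelda motif CAGGTAG and 3.92% held the E-box CAGCTG. A match is a run of letters and not a shown binding site, and the absence of one says only that the letters were not in the window.

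Genes that share a role with the family were read the same way. Of 20 genes of other RNA-binding proteins of neurons and their precursors, 11 had a start peak in the pooled list (55.0%), against 16.1% of all protein-coding genes and 43.4% of those with 4 or more distinct starts. The median member of this list had 4 distinct starts and was 53.7 kb long, against 1 start and 2.17 kb over all genes. The median signal of the 11 was 166. The highest belonged to msi, which encodes the translational repressor Musashi, with a pooled signal of 586, and 160 in replicate 1 and 426 in replicate 2. The KH-domain protein gene mub followed with a pooled signal of 343, and 169 in replicate 1 and 171 in replicate 2. The translational repressor gene brat had a pooled signal of 320, and 128 in replicate 1 and 193 in replicate 2. For pum, which encodes the repressor Pumilio, the pooled signal was 241, with 119 in replicate 1 and 130 in replicate 2. The gene of the sex determination protein SXL, whose RNA recognition motifs resemble those of ELAV, had a peak 375 bp from a start with a pooled signal of 140, and 60.2 in replicate 1 and 81.3 in replicate 2. Its paralogue ssx had none. In the list of replicate 1 alone 8 of the 20 genes were found, against 8.96% of all protein-coding genes. In that of replicate 2 alone 9 were found, against 14.9%. The share of genes with 4 or more distinct starts was computed for the pooled list only, so these 2 counts have no such share beside them. Pooled signals in msi were above, and those in mub, brat and pum below, that of the elav start peak. In replicate 2 too, msi was above the elav start peak and mub, brat and pum were below it, but there brat was above mub. In replicate 1 msi, at 160, was below the 166 of the elav start peak, and mub, at 169, was above it.

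Of 11 genes whose transcripts ELAV is reported to process, 5 had a start peak (45.5%), with a median signal of 233, against 16.1% of all protein-coding genes and 25.6% of those with 2 to 4 distinct starts. They were brat, pum, the acetyltransferase gene nej (pooled signal 233, replicate 1 96.2, replicate 2 134), AGO1 of the microRNA pathway (pooled signal 115, replicate 2 83.5, no overlapping candidate in replicate 1) and arm, the fly beta-catenin gene (pooled signal 102, replicate 1 28.4, replicate 2 63.6). The splicing targets Nrg and ewg had none. The AGO1 summit lay 71 bp from an AGO1 start and 99 bp from a start of another gene. Both brat and pum are also in the list of RNA-binding proteins, so these lists are not independent. The median member had 3 distinct starts and was 21.6 kb long. The list of replicate 1 alone held 3 of the 11, against 8.96% of all genes, and that of replicate 2 alone held 5, against 14.9%. The conservative list held 3, against 13.1%. For these lists the share of genes with 2 to 4 distinct starts was not computed.

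Of 20 neuronal differentiation and synaptic genes, which mark the cell type in which elav is used, 1 had a start peak in the pooled list, against 16.1% of all protein-coding genes and 25.6% of those with 2 to 4 distinct starts. It was Nrx-1, which encodes the synaptic adhesion protein neurexin, with a pooled signal of 138, and 56.9 in replicate 1 and 81.4 in replicate 2. Genes such as nSyb, Syt1, brp, para, Appl and futsch had none. The median member of this list had 2 distinct starts and was 22.7 kb long. By the strongest signal near a start, elav lay above Nrx-1 in both replicates, and fne below it.

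**Figure D4:**
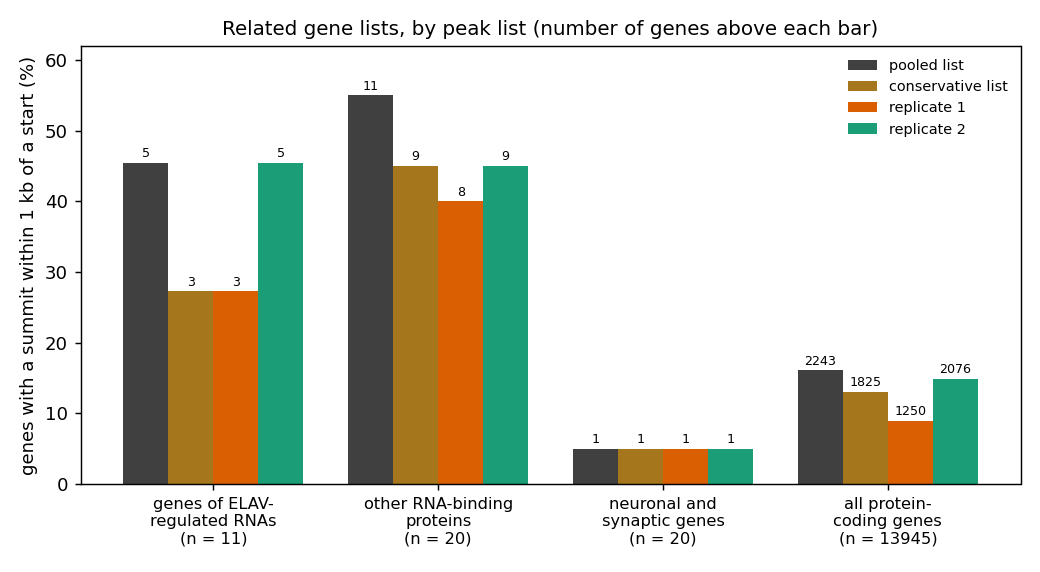
Share of genes with a start peak (%) in 3 related lists and over all protein-coding genes, by peak list, with the number of genes above each bar. RNA-binding protein genes reach 11 of 20 in the pooled list and neuronal and synaptic genes 1 of 20, against 2243 of 13945 genes in all.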

How the data were processed

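The data are 2 replicates of anti-GFP ChIP-seq on klu-eGFP embryos, numbered as the labels give them. The authors deposited 8 peak lists in dm6, per the labels, each with a signal and a score per peak; the sources used here name no aligner, peak caller or version. The lists of each replicate derive from its own alignment and from further files that both replicates share, per the file headers of the deposited text files. Depth is unknown, since no list gives counts.

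Peaks on the main chromosome arms were read against Ensembl release 115 (BDGP 6.54) and the RefSeq genome of release 6, in which 99.9% of annotated start codons read ATG. A gene had a start peak when a summit lay at most 1 kb from a start. Per-replicate values are those of the overlapping ranked peak, by at least 1 bp, with the nearest summit. The named genes are the members, klu, the 2 nearest protein-coding genes on either side, up to 4 genes of each list by signal, and the 3 most like genes; arg, lncRNA:enrr, Ts, arm, Sxl, ssx and the list genes without a peak were named after their values were seen. Members and lists were chosen with earlier results of these data known, so no test was run. The assignment of peaks to genes was tested on simulated data. Tools were Python 3.11.15, numpy 2.4.6, pandas 2.3.3 and matplotlib 3.10.9.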

Additional observations from a re-analysis of the deposited data

How the results depend on the processing

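No paired analysis was possible because the series has a single group. Of 58 values recomputed, 42 stayed within 1.5 times the reported one. The members with a start peak numbered 1, elav, in the conservative list, in the pooled peaks above the median signal and with a distance of 500 bp, and 1 without either replicate; in each of these fne was lost. Over all protein-coding genes, 1460 had a start peak in the pooled peaks above the median signal, and 1250 to 2076 without a replicate. The same count was 1825 in the conservative list, 1939 within 500 bp, 2777 within 2 kb and 2234 by the nearest start. Genes of ELAV-regulated transcripts numbered 3 in the conservative list and 3 to 5 without a replicate. Neuronal and synaptic genes numbered 2 within 2 kb and 3 by the nearest start at any distance. The pooled member peaks numbered 2 above the median signal, and 1 to 2 without a replicate. Over whole peaks 1 member peak held the EGR-type motif, and in windows of 100 bp 1 had a GC content under the pooled median. By signal 3 of the 4 member peaks were higher in replicate 2, and by rank among peaks matched in both 2 were. Peak lists without read counts limit every value here: an unlisted place may carry signal under the threshold.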

Other observations

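In the pooled ranking, candidates were sparser in the bodies of the family's genes than in most genes of similar length. There were 0.214 summits per kb in elav, 0.455 in fne and 0.293 in Rbp9, against a median of 1.07 over the 1516 protein-coding genes of 10 to 40 kb. In elav 3 pooled candidates lay in the body, all in its first 2 kb, although the gene is 14.0 kb long. In fne there were 15, and in Rbp9 4. In the ranked list of replicate 1 the densities were 0.0715 in elav, 0.334 in fne and 0.585 in Rbp9 against a median of 0.950, and in that of replicate 2 they were 0.429, 0.425 and 0.585 against 0.591. In replicate 2 the density of Rbp9 was higher than in 48.7% of the genes of that length. Why the replicates differ was not tested.

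In Rbp9, replicate 2 alone held candidates far from any start, in an exon, 6879 and 7097 bp downstream of the third start, with signals of 13.4 and 3.40 and scores of 17. In elav, replicate 2 alone held candidates in a coding exon, 1308 and 1663 bp downstream of the second start, with signals of 5.59 and 8.27.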
